A study of Homo sapiens with 14 samples.

Results

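The zinc finger gene clusters of chromosome 19 were taken as 4 stretches of the hg19 genome build, from 19.9 to 24.4 Mb (the first cluster), 36.6 to 38.5 Mb (the second), 52.3 to 54.15 Mb (the third) and 56 to 59 Mb (the fourth). The stretches were chosen with earlier results of these data known. Every locus of the deposited RNA tables whose start lay in one of them was a member by position alone, whether or not it is a zinc finger gene. This gave 281 of the 1613 loci of chromosome 19 and of 35671 loci in all, with 96 loci in the first cluster, 34 in the second, 53 in the third and 98 in the fourth. Transcripts carry no gene symbols here, so members are named by position, the label could not be checked against gene names, and genes of other kinds inside the bounds could not be set aside.

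Zinc finger proteins with a KRAB domain are the largest family of transcriptional repressors encoded in the human genome, and many of their genes arose by tandem duplication on chromosome 19. The zinc fingers bind DNA, often within transposable elements, while the KRAB domain recruits the corepressor TRIM28 and with it the methyltransferase SETDB1, which places H3K9me3. The zinc finger genes themselves are known to carry H3K9me3 over their last exons together with H3K36me3, the mark that SETD2 places along transcribed gene bodies.

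The series compared HEK293T, a human embryonic kidney cell line expressing a viral large T antigen, with the same line after knockout of SETD2. Genotype is the only difference the labels give between the groups; they name no clone and no treatment. RNA depleted of ribosomal RNA was sequenced from 3 libraries of each genotype, and 1 wild type library is labelled with the protocol of a ChIP sample. The 8 ChIP samples against H3K36me3 and H4K16ac were not analysed here, so neither mark was measured at these loci.

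The deposited RNA values are FPKM, fragments scaled by transcript length and by the number of mapped fragments, with 1 value per transcript and genotype. No value of a single library and no read count was given, so the depth of the libraries is unknown, no spread between libraries could be computed and no test between libraries could be run. The values stand in 2 tables, a table of tests and a tracking table that adds a lower and an upper bound, whose level is not given. Both tables hold the same wild type values up to a nearly fixed factor, with a median ratio of 0.976 at member loci, but different knockout values, and they are not independent measurements. Since no transcript is named, the loss of SETD2 RNA was not checked. In bulk RNA a lower level in every cell and the same level in fewer cells cannot be told apart.

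Members were mostly weakly expressed. A locus sum is the FPKM of all transcripts of a locus added together. It reached 1 FPKM in either genotype, with neither genotype at 0, at 124 of the 281 loci in the test table and at 123 in the tracking table. The median wild type sum over those 124 loci was 6.89 FPKM, against 30.5 FPKM over 669 other loci of chromosome 19 that met the same condition. In the knockout these medians were 6.08 and 27.6 FPKM. A wild type sum of at least 20 FPKM was reached by 24.2% of the 124 members and by 56.8% of the other chromosome 19 loci.

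The clusters differed in how much of them was expressed. Only 26 of 96 loci of the first cluster met the condition in the test table, and 49.0% of its loci were listed at 0 in both groups. In the second cluster 21 of 34 loci met it, in the third 27 of 53 and in the fourth 50 of 98. Loci with a single transcript made up 53.1% of the first cluster, 20.6% of the second, 30.2% of the third and 35.7% of the fourth. The second cluster had the highest median wild type level, 14.5 FPKM, and the first the lowest, 5.67 FPKM.

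A few highly expressed loci held much of each cluster's total. The locus at chr19:58897767-58906173 was the highest member, with 1163 FPKM in the wild type and 1008 FPKM in the knockout in the test table, and 1136 and 1208 FPKM in the tracking table. It alone made up 42.6% of the wild type total of the fourth cluster. The next highest members were chr19:36602104-36616849 in the second cluster (598.6 FPKM in the wild type, 434.7 FPKM in the knockout) and chr19:52693292-52734547 in the third (572.2 and 491.4 FPKM). In the first cluster chr19:20188803-20432114 led, with 329.4 FPKM in the wild type, 1.12-fold above the knockout. Totals over a cluster therefore describe these loci, and the medians below give each locus the same weight.

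For several of the highest members the tables gave opposite signs. The locus chr19:36630477-36641255 stood at 544.6 FPKM in the wild type and 491.6 FPKM in the knockout in the test table, but at 532.1 and 562.0 FPKM in the tracking table. The loci chr19:20188803-20432114, chr19:56146382-56164527 and chr19:58897767-58906173 likewise had a lower knockout value in the test table and a higher one in the tracking table. No direction can be given for these 4 loci, whose differences were at most 1.15-fold in either table. By contrast chr19:52616344-52680255 was higher in the knockout in both tables, at 224.2 against 191.4 FPKM and at 241.6 against 187.1 FPKM. So was chr19:56165512-56186081, at 620.4 against 569.4 FPKM and at 680.0 against 556.0 FPKM. Of the other named loci of high level, chr19:36602104-36616849 and chr19:52693292-52734547 were lower in the knockout in both tables, by 1.38-fold and 1.16-fold in the test table and by 1.17-fold and 1.06-fold in the tracking table. The loci chr19:23945746-24057503, chr19:36673188-36737159 and chr19:53300662-53360902, were lower in both tables too, by 1.32-fold, 1.12-fold and 1.20-fold in the test table. The last one, chr19:23437855-23457053, was 3.21-fold and 2.83-fold lower and was the only one of the named loci of high level with a called transcript.

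**Figure D1:**
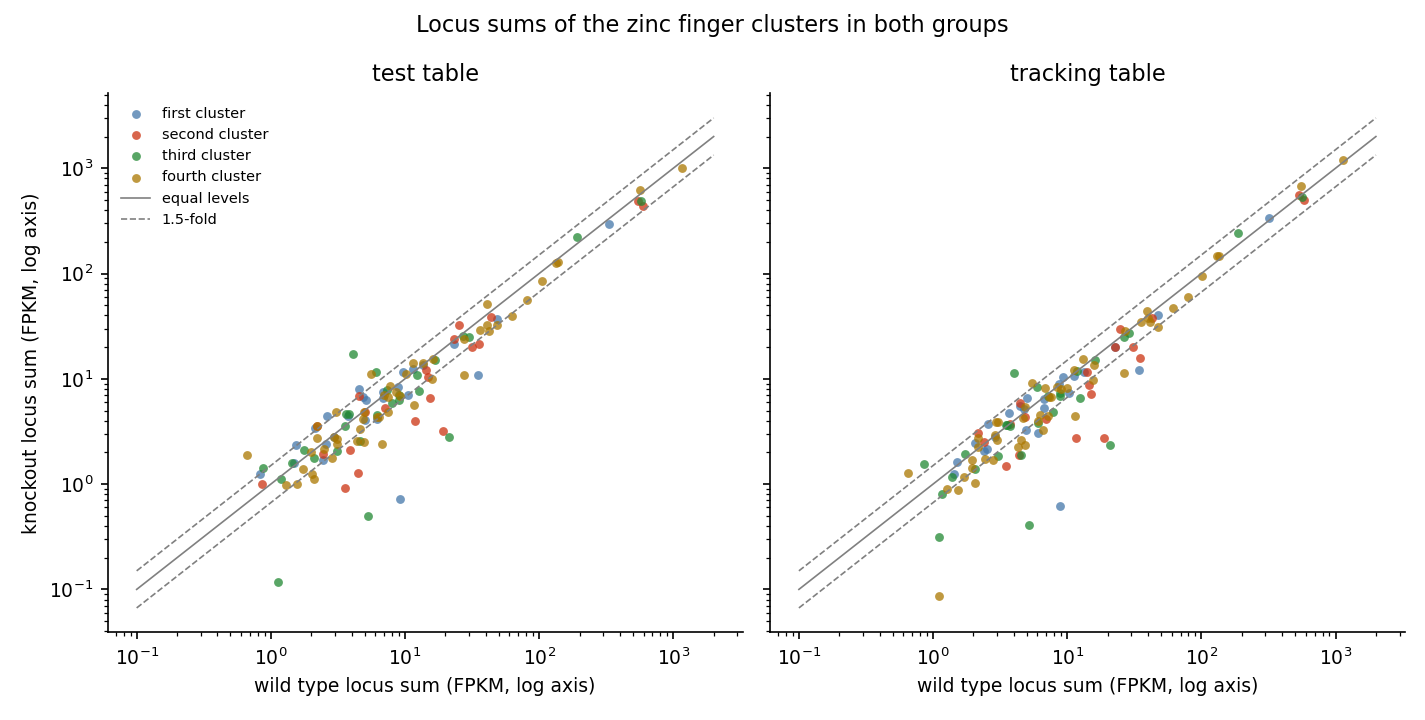
Locus sum in the knockout (vertical, FPKM, log axis) against the wild type (horizontal, FPKM, log axis) for members that met the level condition in the test table (left, 124 loci) and the tracking table (right, 123 loci). Each point is a locus coloured by cluster, the solid line marks equal levels and the dashed lines a difference of 1.5-fold. Loci above 100 FPKM lie within 1.5-fold of the line, and the 5 points farthest from it in the test table lie below it, at wild type sums of 1.14 to 21.4 FPKM.

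Calls in the knockout were few and all in one direction. Of 797 tested member transcripts in the authors' deposited table, 3 fell at a q-value of at most 0.05 (Cuffdiff) and 0 rose. Over all 85852 tested transcripts 0.192% fell and 0.0629% rose by the same rule, and at other chromosome 19 loci 14 of 5914 fell (0.237%) and 3 rose. With 3 calls the member share of 0.376% is not set apart from these. At an unadjusted p-value of at most 0.05 in the authors' deposited table, 24 member transcripts (3.01%) were lower in the knockout and 2 (0.251%) higher. The same shares over all tested transcripts were 1.57% and 0.817%, and at other chromosome 19 loci 1.83% and 0.457%. Transcripts of a locus share reads, so these counts are not independent observations.

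The first call was ENST00000593576, 1 of 14 transcripts of the locus chr19:23437855-23457053 in the first cluster. It fell from 6.06 FPKM in the wild type to 1.84 FPKM in the knockout, or 3.30-fold, with q = 0.0220 in the authors' deposited table (Cuffdiff). In the tracking table its wild type interval was 3.24 to 8.59 FPKM, while the knockout stood at 1.87 FPKM with bounds of 0.749 and 2.997 FPKM, so the intervals did not overlap. The whole locus was lower too, with a sum of 35.1 FPKM in the wild type and 10.9 FPKM in the knockout in the test table, and of 34.3 and 12.1 FPKM in the tracking table. Its highest transcript, ENST00000600039, stood at 18.3 and 5.03 FPKM, but its wild type interval ran from 0 to 60.1 FPKM.

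The second call was ENST00000253144 at chr19:54024235-54083523 in the third cluster. It fell 5.20-fold, from 5.07 to 0.975 FPKM, with q = 0.0220 in the authors' deposited table (Cuffdiff). Its wild type interval, 2.08 to 7.83 FPKM, overlapped that of the knockout, 0 to 2.50 FPKM. The sum over the 22 transcripts of the locus went from 12.7 to 7.65 FPKM, a difference of 1.67-fold. The last call, ENST00000596379, is the only transcript of a locus of 459 bases at chr19:58911588-58912046 in the fourth cluster. It stood at 1.14 FPKM in the wild type and was listed at 0 in the knockout (q = 0.0220 in the authors' deposited table, Cuffdiff), while the tracking table gave 0.0865 FPKM in the knockout. Its intervals, 0 to 2.44 and 0 to 0.307 FPKM, overlapped.

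A further pair of transcripts came closest to the threshold. ENST00000591372 at chr19:36803969-36822620 in the second cluster stood at 3.26 FPKM in the wild type and 0.751 FPKM in the knockout, with q = 0.0532 in the authors' deposited table (Cuffdiff). ENST00000593427, the single transcript of chr19:57815673-57819930 in the fourth cluster, stood at 4.94 and 2.53 FPKM, with q = 0.0891 in the authors' deposited table (Cuffdiff). The authors' intervals did not overlap, with the knockout lower, for 7 of the 797 member transcripts (0.878%) and, with the knockout higher, for 0. Over all tested transcripts these shares were 0.416% and 0.217%.

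Locus sums of the clusters lay lower in the knockout than those of the rest of the chromosome. Over the 124 expressed members the median log2 ratio of knockout to wild type was -0.22 in the test table, with quartiles of -0.57 and 0.11. It was -0.07 over the 669 other chromosome 19 loci (quartiles -0.35 and 0.19) and 0.07 over 11674 loci of the rest of the genome. In the tracking table the members had a median of -0.19 (quartiles -0.65 and 0.08), the other chromosome 19 loci 0.08 and the rest of the genome 0.08. The medians of members and other chromosome 19 loci thus differed by -0.15 in the test table and by -0.27 in the tracking table. The quartile ranges overlapped in both tables, and loci are not replicates, so these differences are descriptions with no test.

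The gap between the tables came mostly from the comparison loci. The ratio of the tracking to the test value of the knockout had a median of 0.928 over the members and of 1.07 over the other chromosome 19 loci. The members' own median moved by less, from -0.22 to -0.19. Across the 122 members expressed in both tables the log2 ratios of both tables had a Pearson correlation of 0.93 and a Spearman correlation of 0.87, as a description of tables that share libraries.

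Counted locus by locus, 86 of 124 members (69.4%) were lower in the knockout in the test table, against 43.9% of all loci and 56.8% of other chromosome 19 loci. Lower in the tracking table were 83 of 123 members (67.5%), against 41.5% of all loci and 40.5% of other chromosome 19 loci. At least 1.5-fold lower were 30 members (24.2%) in the test table, where 11.1% of all loci were, and 34 (27.6%) in the tracking table, where 10.6% were. At least 1.5-fold higher were 14 members (11.3%) in the test table, where 13.1% of all loci were, and 4 (3.25%) in the tracking table, where 10.5% were.

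Both tables together gave 27 of 122 members (22.1%) at least 1.5-fold lower in the knockout, beside 8.67% of all loci and 11.7% of other chromosome 19 loci. At least 1.5-fold higher in both were 4 members (3.28%), beside 7.93% of all loci and 6.02% of other chromosome 19 loci. The 27 lower members had wild type sums of 1.14 to 48.9 FPKM with a median of 7.43 FPKM, so they lie at the usual level of the clusters. Of these loci 2 held a called transcript, and 4 had a highest transcript with intervals that did not overlap. At least 2-fold lower in both tables were 13 of 122 members, beside 4.36% of all loci and 41 of 664 other chromosome 19 loci. At least 2-fold higher was 1 of 122 members, beside 2.8% of all loci and 13 of 664 other chromosome 19 loci.

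**Figure D2:**
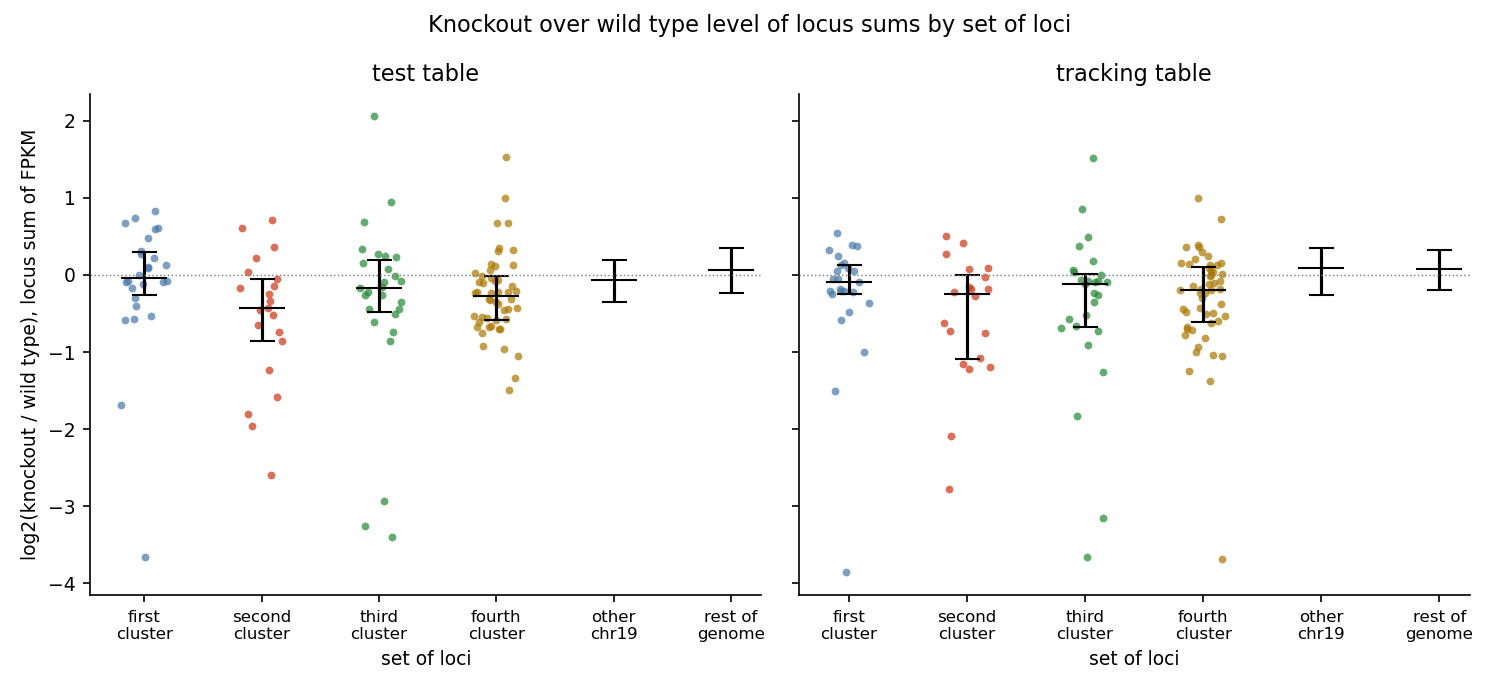
Log2 ratio of knockout to wild type locus sums (vertical) by set of loci in the test table (left) and the tracking table (right). Points are member loci at the level condition, bars are the median and quartiles over loci, and for the other chromosome 19 loci and the rest of the genome only these are drawn. The second and the fourth cluster have medians of -0.43 and -0.27 in the test table and of -0.25 and -0.19 in the tracking table.

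The 4 clusters were not alike. The second cluster was the lowest, with a median log2 ratio of -0.43 over 21 loci in the test table and of -0.25 over 20 loci in the tracking table. The fourth followed with -0.27 over 50 loci and -0.19 over 51 loci. The third had -0.18 and -0.12 over 27 loci, and the first had -0.04 over 26 loci and -0.09 over 25 loci. Lower in the knockout in the test table were 16 of 21 loci of the second cluster and 38 of 50 of the fourth, but 14 of 26 of the first. The order of the clusters was the same in both tables, but the quartile ranges of all 4 overlapped.

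At least 1.5-fold lower in both tables were 7 of 20 loci in the second cluster, 11 of 50 in the fourth, 6 of 27 in the third and 3 of 25 in the first. At least 1.5-fold higher in both tables were 2 loci each in the third and the fourth cluster and 0 in the first and the second. The first cluster thus had a share of lower loci (12.0%) near that of other chromosome 19 loci, and the second had 35%.

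Transcripts listed at 0 in the knockout bear on these sums. Among the 1555 transcripts of the expressed members, 324 (20.8%) were above 0 in the wild type and listed at 0 in the knockout, and 65 (4.18%) were the reverse. At other chromosome 19 loci these shares were 15.9% and 3.84%, and over all loci 15.3% and 4.34%. In the third cluster 25.1% of transcripts were listed at 0 in the knockout only, the highest share of the 4. A value of 0 in this kind of table can be a failed estimate, so sums were also taken over the transcripts above 0 in both groups.

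With those sums the second and the fourth cluster were lower in both tables, and the other two in the tracking table only. The median log2 ratio was -0.34 in the second cluster and -0.22 in the fourth in the test table, and -0.28 and -0.18 in the tracking table. In the third cluster it was 0.04 in the test table and -0.08 in the tracking table, and in the first 0.11 and -0.05. Over all 4 clusters it was -0.14 in both tables, beside -0.04 and 0.10 over other chromosome 19 loci and 0.10 and 0.09 over the rest of the genome. At least 1.5-fold lower were then 20 of 122 members (16.4%) in the test table and 27 of 121 (22.3%) in the tracking table. The shares were 9.01% and 8.86% over all loci, and 13.5% and 10.6% over other chromosome 19 loci. At least 1.5-fold higher were 17 members (13.9%) in the test table and 5 (4.13%) in the tracking table. The shares were 14% and 10.2% over all loci, and 9.89% and 9.06% over other chromosome 19 loci. In the test table the lower and the higher share were thus both larger at members than at other chromosome 19 loci. These sums leave out 324 transcripts at 0 in the knockout only and 65 at 0 in the wild type only, so by construction they tend upward, and whether the zeros are failed estimates was not tested.

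**Figure D3:**
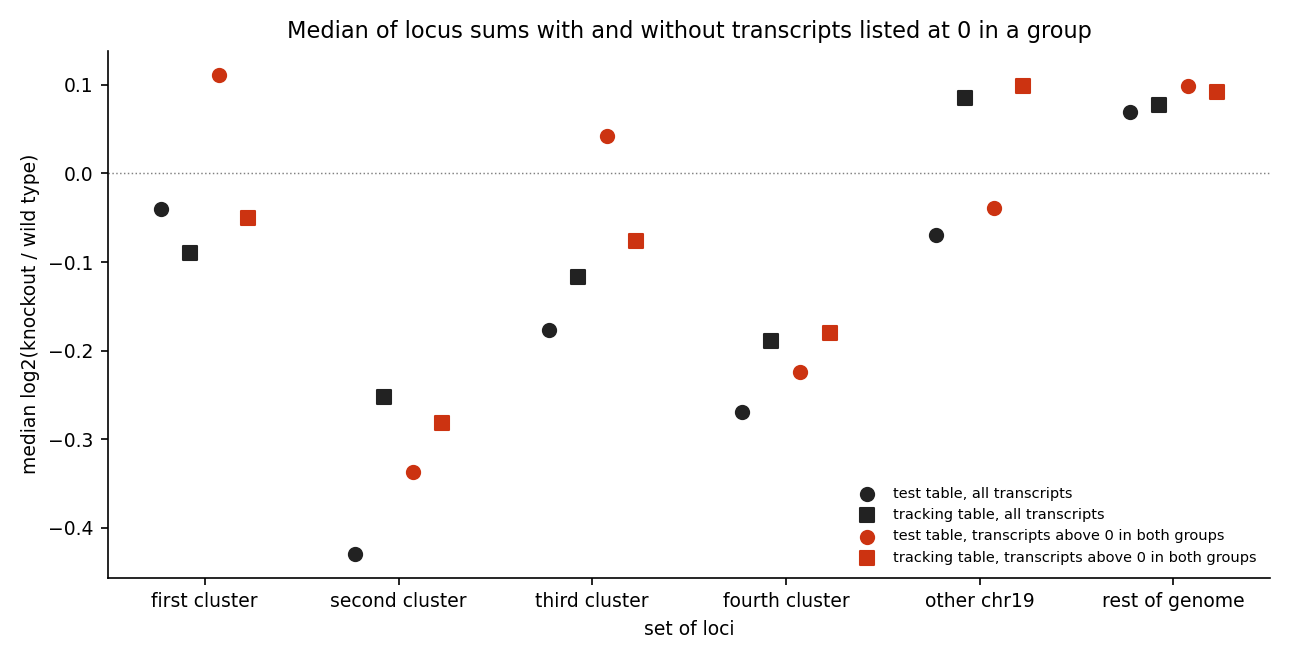
Median log2 ratio of knockout to wild type locus sums (vertical) for each cluster, the other chromosome 19 loci and the rest of the genome. Circles are the test table and squares the tracking table, black for sums over all transcripts and red for sums over transcripts above 0 in both groups. The second and the fourth cluster lie below 0 in all 4 settings, between -0.43 and -0.18, while the first and the third have values on both sides of 0.

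Because members are weakly expressed, they were also compared within bins of the wild type locus sum. In the bin of 20 FPKM or more, 30 members had a median log2 ratio of -0.25 in the test table and of -0.10 in the tracking table. The other chromosome 19 loci of this bin had -0.05 over 380 loci and 0.13 over 376 loci. From 10 to 20 FPKM the members stood at -0.25 and -0.38, over 17 and 16 loci, and the other chromosome 19 loci at -0.01 and 0.07. From 5 to 10 FPKM they stood at -0.30 and -0.28, over 27 and 26 loci, beside -0.20 and -0.05.

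Below 5 FPKM the order differed between bins and tables. From 2 to 5 FPKM the members had medians of -0.16 and -0.05, over 36 and 37 loci, and the other chromosome 19 loci lower ones of -0.38 and -0.21. From 1 to 2 FPKM, with 10 and 12 members, the members had -0.04 in the test table and -0.49 in the tracking table, beside -0.16 and -0.26. Members lay below the rest of the genome in each of the 5 bins in both tables. With bins by the mean of both groups, chosen after the data were seen, the members from 2 to 5 FPKM stood at -0.22 and -0.16, beside -0.25 and -0.22 for other chromosome 19 loci. From 1 to 2 FPKM by the mean, they were at -0.36 in the tracking table, beside -0.24, while in the test table the other chromosome 19 loci were the lower ones. Members thus lay below the other chromosome 19 loci in both tables in every bin from 5 FPKM up, above them in both from 2 to 5 FPKM, and on different sides in the 2 tables from 1 to 2 FPKM. Shares at least 1.5-fold lower also differed by wild type bin. In the test table they were 20% of members and 33.3% of other chromosome 19 loci from 1 to 2 FPKM. From 2 to 5 FPKM they were 27.8% and 33.8%, and from 5 to 10 FPKM 18.5% and 21.6%. From 10 to 20 FPKM they were 35.3% and 19.3%, and from 20 FPKM 23.3% and 9.21%. In the tracking table the members had the smaller share below 5 FPKM and the larger one from 5 FPKM up.

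**Figure D4:**
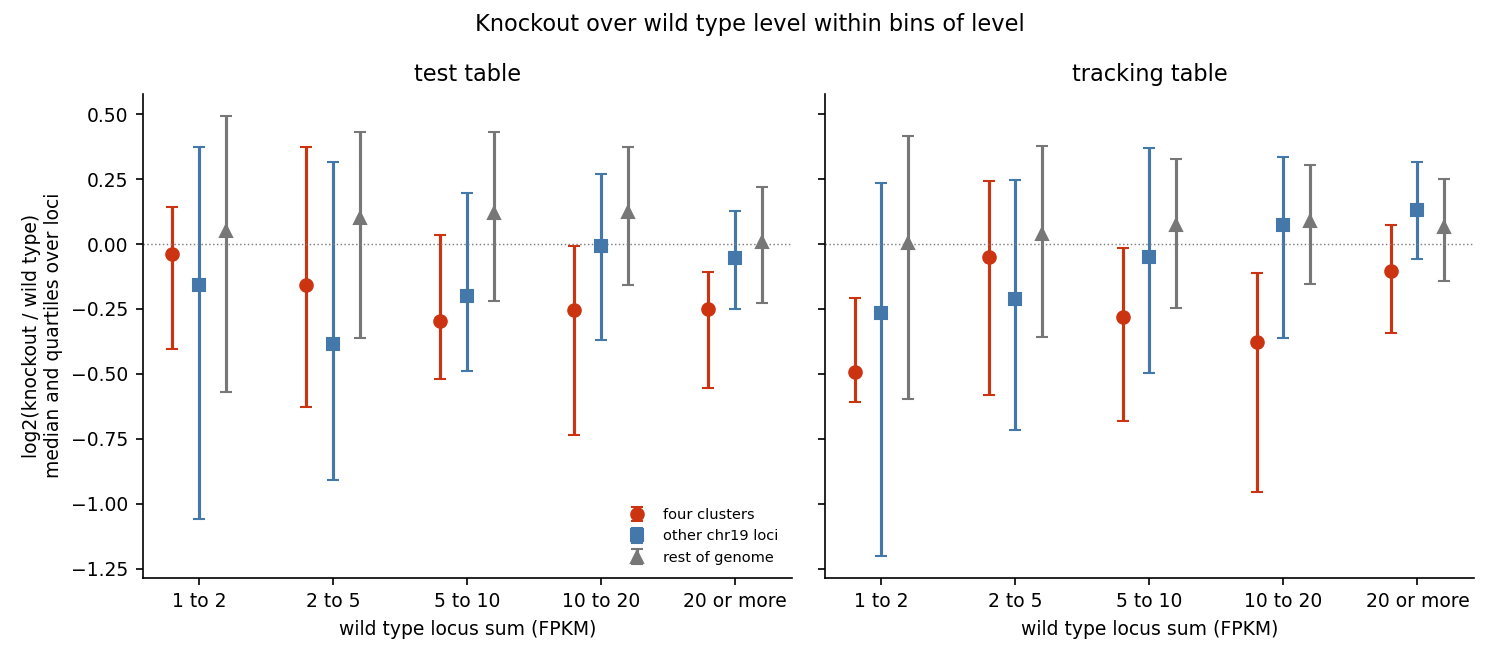
Median and quartiles over loci of the log2 ratio of knockout to wild type locus sums (vertical) within bins of the wild type sum (horizontal, FPKM) in the test table (left) and the tracking table (right). Red circles are the 4 clusters, blue squares other chromosome 19 loci and grey triangles the rest of the genome. In the bins from 5 FPKM upward the clusters lie below the other sets, with medians of -0.38 to -0.10, and the quartile ranges overlap in every bin.

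The second and the fourth cluster each held a run of lower loci. In the second, 11 of the 13 loci starting between 37 and 38 Mb were lower in each table. The median log2 ratio of these 13 loci was -0.52 in the test table and -0.63 in the tracking table. The largest difference of the second cluster lay just before, at chr19:36803969-36822620. Its sum over 9 transcripts was 19.1 FPKM in the wild type and 3.17 FPKM in the knockout in the test table, a difference of 6.04-fold, and 18.7 and 2.74 FPKM in the tracking table. Several of its transcripts were lower. ENST00000591372, ENST00000427868 and ENST00000590622 stood at 3.26, 2.61 and 2.21 FPKM in the wild type and at 0.751, 0.240 and 0.820 FPKM in the knockout. ENST00000410798, which the authors did not test, stood at 4.92 FPKM and was listed at 0 in the knockout. Without the transcripts listed at 0 the difference was 4.31-fold.

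Other low loci of the second cluster followed at short distances. The short loci chr19:37176342-37178351 and chr19:37264055-37267980 went from 4.47 to 1.28 FPKM and from 3.57 to 0.917 FPKM in the test table, or 3.50-fold and 3.90-fold. In the tracking table the same differences were 2.29-fold and 2.32-fold. At chr19:37742814-37756437 the sum was 11.9 FPKM in the wild type and 3.97 FPKM in the knockout, a difference of 2.99-fold, and of 4.27-fold in the tracking table. Its transcript ENST00000438770 went from 5.04 to 1.42 FPKM with an unadjusted p = 0.01435 in the authors' deposited table (Cuffdiff). The next locus, chr19:37803739-37860267, went from 15.4 to 6.54 FPKM in the test table and from 15.05 to 7.15 FPKM in the tracking table. None of these loci had a called transcript.

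A minority of the second cluster was higher in the knockout. The locus chr19:37407231-37489602, between the lower ones, stood at 2.20 FPKM in the wild type and 3.60 FPKM in the knockout in the test table, and at 2.15 and 3.05 FPKM in the tracking table. Of its sum 43.9% in the knockout came from transcripts listed at 0 in the wild type. The locus chr19:36936021-36981942 stood at 4.53 and 6.88 FPKM, and chr19:38226734-38307940 at 25.1 and 32.4 FPKM. Their differences were 1.63-fold, 1.52-fold and 1.29-fold in the test table, and 1.42-fold, 1.34-fold and 1.20-fold in the tracking table.

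**Figure D5:**
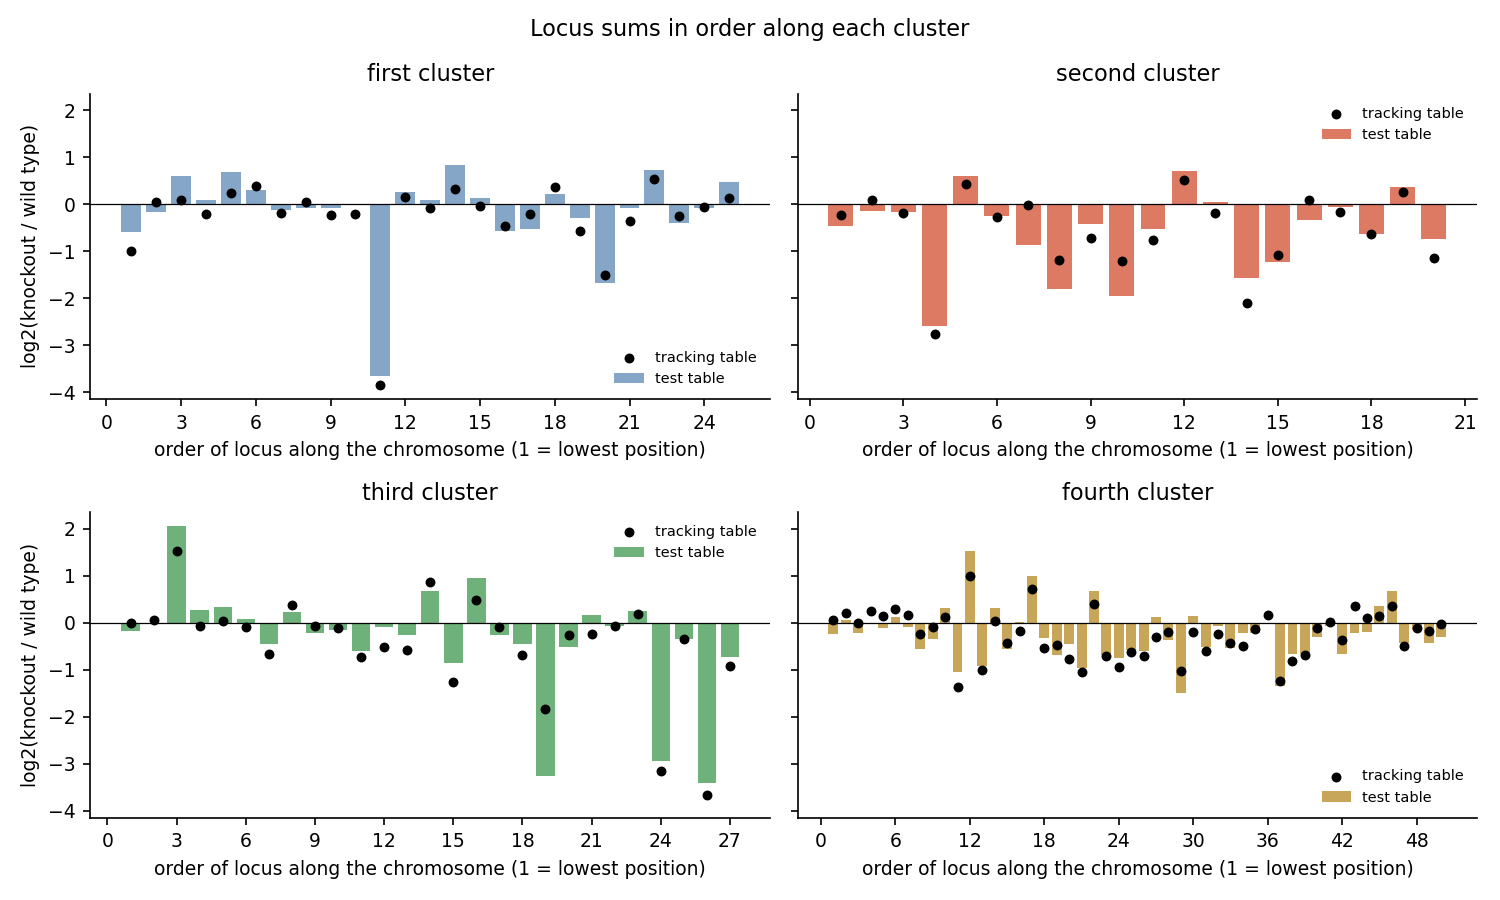
Log2 ratio of knockout to wild type locus sums (vertical) of members expressed in both tables, in order along the chromosome within each cluster (horizontal, 1 is the lowest position). Bars are the test table and black points the tracking table. Lower loci lie next to higher ones in every cluster, and stretches of mostly lower loci stand in the second, the third and the fourth.

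In the fourth cluster 38 of 50 loci were lower in the test table, 13 of them at least 1.5-fold and 3 at least 2-fold. Of the 15 loci starting between 57 and 58 Mb, 10 were lower in the test table and 11 in the tracking table. The median log2 ratio there was -0.57 in the test table, with an upper quartile of 0.17, and -0.54 in the tracking table. From 58 Mb it was -0.27 over 24 loci in the test table, with 20 lower. In the tracking table it was -0.19 over 25 loci there, with 19 lower. The lowest knockout sums relative to the wild type, by the rule for named loci, were at chr19:58570607-58629794, chr19:58111253-58124090 and chr19:56905025-56947404. The first of these went from 27.4 FPKM in the wild type to 10.8 FPKM in the knockout in the test table, and from 26.7 to 11.3 FPKM in the tracking table. Its transcript ENST00000433686 went from 7.997 to 2.27 FPKM (unadjusted p = 0.00245, q = 0.432 in the authors' deposited table, Cuffdiff), and its intervals of 2.55 to 13.1 and 0.427 to 4.58 FPKM overlapped.

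All 3 of these loci held transcripts listed at 0 in the knockout. At chr19:58570607-58629794 they made up 26.3% of the wild type sum, and the difference was 1.87-fold without them and 2.54-fold with them. At chr19:58111253-58124090 the sum was 6.80 FPKM in the wild type and 2.43 FPKM in the knockout. Of the wild type sum 69.7% came from transcripts listed at 0 in the knockout, and the remaining transcripts stood at 2.06 FPKM in the wild type and 2.43 FPKM in the knockout. The sum at this locus was therefore not lower once those transcripts were left out. At chr19:56905025-56947404 the sum went from 11.7 to 5.68 FPKM, and the difference was 1.77-fold without such transcripts and 2.07-fold with them.

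Fewer loci of the fourth cluster were higher in the knockout. The locus chr19:57702868-57724724 stood at 5.63 FPKM in the wild type and 11.2 FPKM in the knockout in the test table, and at 5.49 and 9.04 FPKM in the tracking table. Most of this came from the single transcript ENST00000594126, at 0.614 and 6.60 FPKM, whose tracking intervals of 0 to 3.11 and 0 to 16.9 FPKM overlapped. The locus chr19:57019212-57041590 stood at 0.662 and 1.90 FPKM, a difference of 2.87-fold at a low level, and chr19:58912871-58929694 at 40.6 and 51.6 FPKM. The first 7 expressed loci of the cluster, up to the locus at 56186592, had log2 ratios between -0.23 and 0.12 in the test table and up to 0.29 in the tracking table.

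In the third cluster a few loci stood far from the others, in both directions. The sum at chr19:53868946-53930574 was 21.4 FPKM in the wild type and 2.79 FPKM in the knockout in the test table (7.65-fold), and 20.9 and 2.34 FPKM in the tracking table (8.90-fold). The neighbouring chr19:53970989-54015941 went from 5.27 to 0.498 FPKM (10.6-fold) and from 5.16 to 0.410 FPKM (12.6-fold). Both differences came mostly from transcripts listed at 0 in the knockout, which held 90.8% of the first wild type sum and 83.5% of the second.

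The remaining transcripts of these loci differed from the sums. At chr19:53868946-53930574 the transcripts above 0 in both groups summed to 1.96 FPKM in the wild type and 2.30 FPKM in the knockout, and ENST00000396408 stood at 1.60 and 1.97 FPKM. At the neighbouring locus ENST00000396403 went from 0.581 to 0.215 FPKM (unadjusted p = 0.00190 and q = 0.367 in the authors' deposited table, Cuffdiff). Its intervals in the tracking table, 0.271 to 0.863 and 0.0707 to 0.380 FPKM, overlapped. Its transcript ENST00000483735 had 4.33 FPKM in wild type cells (bounds of 2.30 and 6.19 FPKM) and was listed at 0 with an interval of 0 to 0 in the knockout, without passing the authors' test. The neighbours thus shared a lower sum, but the other transcripts were lower only at the second of them. Another locus, chr19:53418449-53427328, stood at 1.14 FPKM in the wild type and 0.119 FPKM in the knockout, and in the tracking table at 1.11 and 0.312 FPKM, with no transcript listed at 0.

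The third cluster also held the member that was highest in the knockout relative to the wild type. At chr19:52452387-52490109 the sum was 4.10 FPKM in the wild type and 17.1 FPKM in the knockout in the test table, a difference of 4.16-fold, and 4.01 and 11.5 FPKM in the tracking table (2.86-fold). The transcript ENST00000599258 held most of it, at 1.49 and 13.7 FPKM. Its wild type interval ran from 0 to 11.3 FPKM and overlapped that of the knockout, 5.39 to 12.5 FPKM. Another transcript of the locus, ENST00000243644, stood at 1.41 and 1.87 FPKM. At chr19:53206066-53238326 the sum was 6.05 and 11.6 FPKM, with ENST00000599798 at 1.22 and 7.33 FPKM, and in the tracking table it was 5.90 and 8.29 FPKM. The last of the higher loci, chr19:53030905-53090427, stood at 0.878 and 1.41 FPKM, a difference of 1.60-fold at a low level.

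The first cluster was nearly balanced apart from a few loci. The largest difference by ratio lay at chr19:21565667-21569979, a locus of 4313 bases with 2 transcripts. Its sum was 9.14 FPKM in the wild type and 0.725 FPKM in the knockout in the test table (12.6-fold), and 8.90 and 0.616 FPKM in the tracking table (14.5-fold). None of it came from transcripts listed at 0. Its main transcript ENST00000433190 had a wild type interval of 4.92 to 12.2 FPKM, which did not overlap that of the knockout, 0 to 1.46 FPKM, but the authors' test gave an unadjusted p = 0.501 in the deposited table (Cuffdiff). The called locus at chr19:23437855-23457053, described above, was the only other locus of the cluster at least 2-fold lower in both tables.

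Loci of the first cluster with higher knockout values differed by less in the tracking table. The locus chr19:21905568-21950430 stood at 4.53 FPKM in the wild type and 8.02 FPKM in the knockout in the test table, and at 4.42 and 5.55 FPKM in the tracking table. The locus chr19:23708433-23870022 stood at 2.64 and 4.402 FPKM, and at 2.58 and 3.75 FPKM. The locus chr19:21106028-21133503 stood at 2.12 and 3.38 FPKM, and at 2.07 and 2.45 FPKM. On the lower side, chr19:20107867-20150315 stood at 6.20 and 4.13 FPKM, but 61.2% of its wild type sum came from transcripts listed at 0 in the knockout, and the rest was 1.72-fold higher there. At least 1.5-fold higher were 5 of 26 loci of this cluster in the test table and 0 of 25 in the tracking table.

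Loci beside each cluster gave a comparison within the same region. Other loci starting within 2 Mb of the second cluster had a median log2 ratio of 0.09 over 75 loci in the test table and of 0.20 over 74 in the tracking table, above the -0.43 and -0.25 of the cluster itself. Loci beside the fourth cluster had -0.10 over 32 loci and 0.03 over 33, above the cluster's -0.27 and -0.19. Loci beside the third had -0.29 over 56 loci and -0.14 over 60, and lay as low as the cluster or lower. Loci beside the first had -0.06 and 0.08 over 42 loci, beside -0.04 and -0.09 in the cluster. Only the second and the fourth cluster lay below their flanks in both tables. Loci starting between 54.15 and 56 Mb lie within 2 Mb of both the third and the fourth cluster. They count in the flanks of each and make up most of the 32 beside the fourth, so these flanks are not separate. The flanks of the second and the fourth were also more highly expressed, with median wild type sums of 26.7 and 61.2 FPKM. The part of the level in these differences was not tested.

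The leading transcript of a locus, the one with the highest FPKM, was the same in both groups at 67 of 110 members with several transcripts (60.9%) and at 68.8% of 613 other chromosome 19 loci. It was the same at 18 of 22 such loci of the first cluster, 10 of 21 of the second, 13 of 25 of the third and 26 of 42 of the fourth. The leading wild type transcript held a median of 41.3% of the wild type sum and 36.9% of the knockout sum at the members, beside 44.8% and 40.2% at the other chromosome 19 loci. Many annotated transcripts of a locus differ by little sequence, and no source used here says how reads were divided among them. Zinc finger genes of a cluster are near copies of one another, so reads could also have been divided among neighbouring loci.

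The log2 ratio of the members was also set against the traits of the locus. Over the 122 members expressed in both tables its Spearman correlation with the wild type sum was -0.20 in the test table and -0.06 in the tracking table, and with locus length 0.10 and 0.06. With the number of transcripts it was -0.02 and -0.01. Within clusters the values were larger in places. In the first cluster, over 25 loci, the Spearman correlation with the wild type sum was -0.47 in the test table and -0.34 in the tracking table, and with locus length 0.28 and 0.46. In the second, over 20 loci, that with length was 0.40 and 0.17. In the fourth, over 50 loci, that with length was -0.17 and -0.19. The wild type sum enters both sides of the first of these, and loci share libraries, so they are descriptions.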

How the data were processed

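FPKM values of wild type and SETD2 knockout HEK293T RNA were deposited by the authors as 1 value per transcript and group in a tracking table, with bounds, and in a table of tests, per the file headers. That table also holds the authors' log2 fold, test statistic (a score) and p-value and q-value, per the file headers. The submitters' processing notes name TopHat, Cuffdiff, Bowtie 1.1.2 and hg19, without role; no source used here gives the annotation. Each row is an Ensembl transcript; 0 of 204092 IDs matched a gene symbol. Of these, 118190 were not tested, and the 6 loci with a status of HIDATA (24 transcripts) or FAIL (26) were left out. FPKM were summed per locus, and 1 was added to starts. Folds are ratios of sums without a pseudocount, over loci that reached 1 FPKM in either genotype with neither at 0. Calls are the authors' at q = 0.05; no test was added, and nothing in the labels says that libraries came from separate cultures, so these p-values may measure technical spread. Named loci were, per cluster, those with a call and, among loci over 1000 bases at 1 FPKM or more in both tables, the 3 highest and the 3 largest rises and falls by log2(sum + 1) with the same direction in both tables, 37 in all; a few others with the smallest q or beside them were chosen after their values were seen. Clusters, bins and rules were chosen with earlier results of these data known. Summing and medians were tested on simulated sums with set shifts, little noise, equal transcript shares and no zeros, which checks the code only. Python 3.11.15, pandas 2.3.3, numpy 2.4.6, scipy 1.17.1 and matplotlib 3.10.9 were used.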

Additional observations from a re-analysis of the deposited data

How the results depend on the processing

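No paired analysis was possible because the files hold 1 value per group, so neither a replicate block nor leaving out a replicate could be run. Of 96 values under 15 alternatives, 90 counted as the same. They kept their sign and lay within the order-statistic interval of the median over loci (95%), or within 1.5 times for counts of calls. That interval takes loci as independent, although they are not replicates. For the difference of medians it holds the median of other chromosome 19 loci fixed. Lying within it is thus no measure of stability between libraries. Some of the 90 could not change. Failed loci lay outside the clusters, and leaving out other stretches of chromosome 19 does not touch the cluster medians. Subsets of the 0 called rises also stay at 0. The difference of medians between the clusters and other chromosome 19 loci, -0.15, was negative under all 12 alternatives run on it. It ran from -0.27 with the tracking table to -0.04 with no level filter and a pseudocount of 1. Of the 12, subtracting the median of all loci cannot change it, and keeping failed loci adds only 1 other chromosome 19 locus. The median of the clusters moved from -0.22 to -0.092 with no level filter and a pseudocount of 1. That of other chromosome 19 loci turned from -0.07 to 0.085 in the tracking table and was -0.13 after subtracting the median of all loci. With sums over transcripts above 0 in both groups, chosen after the data were seen, the first cluster turned from -0.04 to 0.11 and the third from -0.18 to 0.043; the alternative leaves out transcripts listed at 0, mostly in the knockout. The second cluster ran from -0.49 to -0.23 and the fourth from -0.33 to -0.13. The 3 calls that fell were 2 when a value above 0 in both groups was asked for, and the 14 at other loci were 12. Depth is unknown, and values of a few FPKM have wide intervals.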

Other observations

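Stretches of chromosome 19 outside the bounds that also hold zinc finger genes, by textbook knowledge, were looked at after the data were seen. The 19 expressed loci starting between 44 and 45 Mb had a median log2 ratio of knockout to wild type of -0.29 in the test table and of -0.19 in the tracking table, and 13 of 19 were lower in each, at a median wild type sum of 8.05 FPKM. The 15 loci between 9 and 10 Mb had -0.14 and -0.20. The 30 loci between 11 and 13 Mb had -0.10 in the test table, and 31 loci had 0.05 in the tracking one, and the 15 loci between 35 and 36 Mb had 0.11 and 0.13, so these stretches were not alike. Without all of them the other chromosome 19 loci had -0.05 and 0.10.

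Weak loci of the clusters were listed at 0 more often in the knockout. Of the 281 members, 45 were above 0 in the wild type and at 0 in the knockout in the test table, and 1 was the reverse; over all 35671 loci these counts were 3215 and 402. The highest of the 45 was a locus of 235 bases at chr19:21902603-21902837, at 1.86 FPKM in the wild type. By the tracking table, 43 members were at 0 in the knockout only. A further 84 members were at 0 in both groups in each table.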
